A study of Mus musculus with 10 samples.

Results

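Glutathione synthesis and cystine supply were described here through 9 mouse genes, Gclc, Gclm, Gss, Gsr, Slc7a11, Cth, Cbs, Ggt5 and Chac2, out of 27179 Entrez genes in the deposited table. They were chosen by their role in the pathway and with their difference between the groups already known, because Gclc, Cth and Slc7a11 had stood out in earlier results of the same mice. Their differences between the groups are therefore given as description, without p-values. Where the text says that one of them passed a threshold, this describes the fit over all genes and is no independent evidence. All 9 had a row, and all 9 passed the filter on low counts that left 15301 genes.

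Glutathione is a tripeptide of glutamate, cysteine and glycine that cells keep at high concentration to reduce peroxides and to conjugate foreign compounds. Its supply is usually limited by cysteine, which is taken up as cystine or made from methionine by transsulfuration, and by glutamate-cysteine ligase, the enzyme of the first step. In the lung, glutathione is present in epithelial cells and in the fluid that lines the airways and alveoli. The transcription factor NRF2 activates genes of synthesis and reduction under oxidative stress, and ATF4, which acts downstream of the endoplasmic reticulum kinase PERK and other kinases, activates genes of amino acid supply.

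Whole-lung RNA was sequenced from 5 mice labelled EpithelialKO and 5 labelled Flox. The EpithelialKO mice carried 1 Cre allele at the Shh locus (Shh Cre/+) and floxed Ern1, the gene of IRE1α, on both chromosomes (IRE1α fl/fl). The Flox mice carried the same floxed alleles and no Cre (Shh +/+). IRE1α is a kinase and ribonuclease of the endoplasmic reticulum, and Shh is active in the lung epithelium, so that the deletion is directed at epithelial cells among all the cells of the lung. The Cre allele was present in every EpithelialKO mouse and in no Flox mouse, so its effect and that of the loss of Ern1 cannot be told apart. Age and sex are not stated in the labels.

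Each mouse gave between 14983829 and 21224412 counts. Ern1 stood at 12.3, 15.5, 10.7, 21.8 and 26.1 CPM (read counts scaled to a common library size) in EpithelialKO mice 17, 18, 20, 21 and 22, against 20.1, 19.8, 15.6, 8.05 and 20.5 CPM in Flox mice 2, 3, 4, 5 and 6. The ranges overlapped, and a count over the whole gene in whole lung does not check the deletion. Xist, the RNA of the inactive X chromosome, had 3949 counts in Flox mouse 4 and 4866 in Flox mouse 6, where 4 Y-linked genes summed to 0. In EpithelialKO mice Xist ran from 6 to 40 and the Y-linked sum from 2775 to 3480, against 2 to 61 and 2462 to 3575 in the remaining 3 Flox mice. Fold changes of the glutathione synthesis and cystine supply genes are therefore given with and without these Flox mice. For all other genes and lists, fold changes and their medians are given on all mice only. The lung epithelium was represented in every library: the summed level of 8 markers of AT2 cells, the alveolar cells that make surfactant, ran from 49342 to 60995 CPM in EpithelialKO and from 41120 to 49294 CPM in Flox. The summed level of 13 pan-epithelial genes ran from 1534 to 1968 CPM in EpithelialKO and from 1178 to 1463 CPM in Flox, so these groups did not overlap.

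Upstream sequence was available in the RefSeq table of build GRCm38.p6 for 5 of the 9 genes: Gclm, Gss, Slc7a11, Cbs and Chac2. In the 250 bases before the start that RefSeq gives, both strands were searched for the antioxidant response element that NRF2 binds (TGACNNNGC) and for the amino acid response element that ATF4 binds together with C/EBP proteins (TGATGNAA). The upstream stretches of Slc7a11 and Gclm are shown because they are the ones that held a match, with the matched letters in capitals. The Slc7a11 stretch is chr3:50443614-50443863 on the minus strand and the Gclm stretch is chr3:122245307-122245556 on the plus strand, both written 5′ to 3′ along the gene. Gene positions elsewhere in the text are whole-gene spans of the RefSeq gene annotation, whose outermost start can differ. The start used for the stretch lies 55474 bases downstream of it for Slc7a11, 70 bases for Gclm, 28 bases for Cbs and 0 bases for Gss and Chac2. The Slc7a11 stretch therefore lies inside the whole-gene span of that gene, and which start the lung uses was not measured.
Slc7a11: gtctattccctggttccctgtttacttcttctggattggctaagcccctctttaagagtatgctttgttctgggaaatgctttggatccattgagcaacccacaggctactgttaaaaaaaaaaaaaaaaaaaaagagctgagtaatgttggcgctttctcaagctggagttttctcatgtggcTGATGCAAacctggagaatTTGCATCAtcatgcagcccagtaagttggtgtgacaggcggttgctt
Gclm: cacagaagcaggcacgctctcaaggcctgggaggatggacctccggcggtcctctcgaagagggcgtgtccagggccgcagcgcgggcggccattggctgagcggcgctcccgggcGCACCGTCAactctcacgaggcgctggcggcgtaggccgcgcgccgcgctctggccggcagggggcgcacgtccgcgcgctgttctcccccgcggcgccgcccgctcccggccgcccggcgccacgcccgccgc

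The Slc7a11 stretch held 2 copies of the amino acid response element, TGATGCAA, at bases -66 to -59 on the strand of the gene and at -47 to -40 on the other strand, which do not overlap. At least 1 copy was found in 3.45% of 32851 upstream stretches of the same length and at least 2 copies in 0.0396%. The Gclm stretch held 1 antioxidant response element, TGACGGTGC, at bases -134 to -126 on the strand opposite to the gene, and 10.2% of the stretches held a match. These are matches of letters and not measured binding sites. The stretches also differed in base composition, with 43.2% G and C before Slc7a11 and 78.4% before Gclm, against a median of 52.4% over all stretches. Of the 9 genes, 3, namely Gclm, Slc7a11 and Cth, lie on chromosome 3, at separate positions.

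All 9 genes had a positive log2 fold change of EpithelialKO over Flox. Their median was 0.25, and over the 15301 tested genes the median was 8e-04 and 50.1% were positive. The fold changes fell in 2 ranges, with Slc7a11, Cth and Gclc from 0.62 to 1.30 and the other 6 from 0.12 to 0.41. In edgeR's quasi-likelihood fit 1 of the 9, Gclc, passed the adjusted threshold of 0.05, beside 0.0392% of all tested genes in either direction and 0.00654% in the higher direction, which is Gclc alone. In 2 of the 9, Gclc and Slc7a11, every EpithelialKO mouse lay above every Flox mouse, beside 1.63% of all tested genes. DESeq2's Wald test passed 3 of the 9, Gclc, Cth and Slc7a11, beside 0.871% of the genes to which it gave an adjusted p. Since the genes were chosen on this contrast, nothing is read from these counts. In bulk tissue, more cells of a type and more RNA per cell cannot be told apart.

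**Figure D1:**
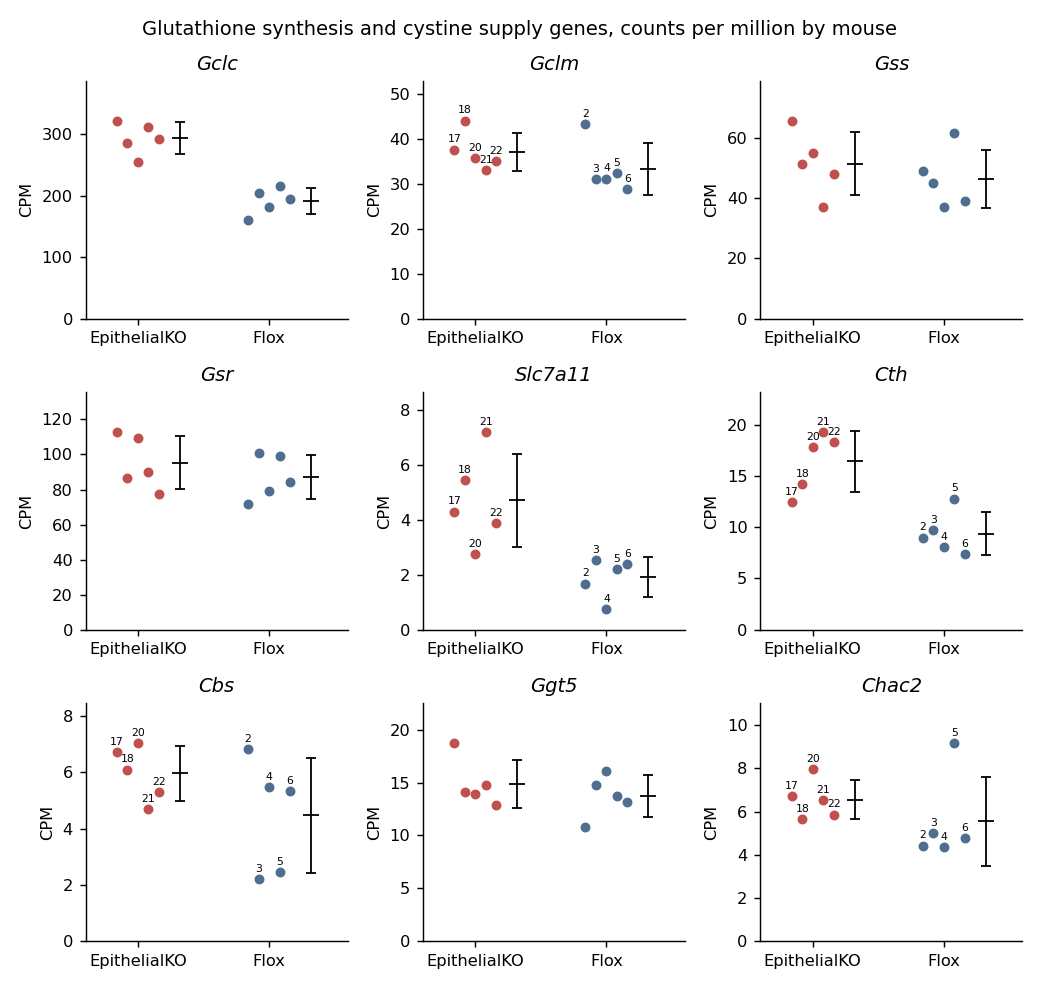
CPM (linear axis from 0) of each of the 9 genes, 1 point per mouse, with the mean and SD of the 5 mice of a group at the right of its points; small numbers, given in some panels, are mouse numbers in the order used in every panel. EpithelialKO and Flox mice do not overlap for Gclc and Slc7a11, and 4 of 5 EpithelialKO mice lie above all Flox mice for Cth.

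Glutamate-cysteine ligase consists of a catalytic subunit, Gclc, and a modifier subunit, Gclm, that makes the catalytic subunit more efficient. Gclc (Entrez 14629, GRCm38 chromosome 9, 77754535 to 77794489, plus strand) stood at 322, 287, 255, 312 and 293 CPM in EpithelialKO mice 17, 18, 20, 21 and 22, against 161, 204, 181, 216 and 194 CPM in Flox mice 2, 3, 4, 5 and 6. The lowest EpithelialKO mouse, 20, lay above the highest Flox mouse, 5. Gclc rose to 294 ± 26.1 CPM in EpithelialKO, against 191 ± 21.3 CPM in Flox (SD, n = 5 each). This is 0.62 ± 0.10 (SE) on the log2 scale, or 1.53-fold. The fold change was 0.60 ± 0.12 without Flox mice 4 and 6, and between 0.56 and 0.66 with any 1 mouse left out. The call itself was lost with the pan-epithelial covariate described further on, without Flox mice 4 and 6 and without any single mouse other than Flox mouse 5. The fits without mice also hold fewer samples.

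Gclm (Entrez 14630, chromosome 3, 122245487 to 122267215, plus strand) had a smaller difference, and the contrast between the subunits was not tested. It stood at 37.6, 44.0, 35.7, 33.0 and 35.1 CPM in EpithelialKO mice 17, 18, 20, 21 and 22, against 43.3, 30.9, 31.1, 32.4 and 28.8 CPM in Flox mice 2, 3, 4, 5 and 6. The groups overlapped, and Flox mouse 2 stood apart from the other Flox mice. The log2 fold change was 0.15 ± 0.13 (SE), with a 95% interval from -0.11 to 0.42, and it was 0.27 without Flox mouse 2 and 0.06 ± 0.15 without Flox mice 4 and 6. Its exons share 540 bases with 2 annotated genes, a pseudogene on the same strand and a transcript on the other, and whether the counting used strand is not given here.

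The level of Gclc relative to Gclm, both per length of exon, was 14.3, 10.9, 11.9, 15.8 and 13.9 in EpithelialKO mice 17, 18, 20, 21 and 22, against 6.21, 11.04, 9.73, 11.2 and 11.3 in Flox mice 2, 3, 4, 5 and 6. EpithelialKO mouse 18 had a ratio within the range of the Flox mice and the other 4 lay above all of them. The mean ratio was 13.4 ± 1.96 in EpithelialKO and 9.88 ± 2.14 in Flox (SD, n = 5 each). The catalytic subunit was thus the more abundant transcript of the pair in all 10 mice.

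Gss encodes glutathione synthase, which adds glycine in the second step (Entrez 14854, chromosome 2, 155563181 to 155592810, minus strand). It stood at 65.6, 51.3, 54.9, 37.1 and 47.9 CPM in EpithelialKO mice 17, 18, 20, 21 and 22, against 48.8, 45.1, 37.1, 61.4 and 38.8 CPM in Flox mice 2, 3, 4, 5 and 6. The lowest mouse of each group had 37.1 CPM, so the ranges nearly coincided at their lower end. The log2 fold change was 0.15 ± 0.15 (SE) and it was -0.01 ± 0.16 without Flox mice 4 and 6, so its sign depended on those mice. With 1 mouse left out it ran from 0.05 without EpithelialKO mouse 17 to 0.27 without Flox mouse 5. Exons of Gss overlap exons of Acss2 and of 2 antisense transcripts over 1102 bases.

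Gsr encodes glutathione reductase, which regenerates reduced glutathione with NADPH (Entrez 14782, chromosome 8, 33653238 to 33698162, plus strand). It stood at 113, 86.6, 109, 90.1 and 77.6 CPM in EpithelialKO mice 17, 18, 20, 21 and 22, against 71.8, 101, 79.2, 99.1 and 84.3 CPM in Flox mice 2, 3, 4, 5 and 6. Mice of both groups were interleaved, and 3 of 5 EpithelialKO mice lay above the Flox mean. EpithelialKO over Flox gave a log2 fold change of 0.13 ± 0.12 (SE), with a 95% interval from -0.13 to 0.39. It was 0.08 ± 0.15 without Flox mice 4 and 6, and ran from 0.06 without EpithelialKO mouse 17 to 0.20 without EpithelialKO mouse 22.

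Slc7a11 encodes xCT, the transport subunit of the antiporter that takes up cystine in exchange for glutamate (Entrez 26570, chromosome 3, 50364936 to 50499087, minus strand). It had 72, 99, 44, 133 and 69 counts in EpithelialKO mice 17, 18, 20, 21 and 22, against 36, 47, 14, 33 and 47 counts in Flox mice 2, 3, 4, 5 and 6. In CPM these were 4.29, 5.44, 2.75, 7.19 and 3.89 in EpithelialKO, against 1.67, 2.53, 0.76, 2.20 and 2.39 in Flox. EpithelialKO mouse 21 was the highest of all and Flox mouse 4 the lowest, and the groups did not overlap in CPM, with 2.75 in EpithelialKO mouse 20 next to 2.53 in Flox mouse 3. The log2 fold change was 1.30 ± 0.36 (SE), the largest of the 9 genes and 2.47-fold. Its 95% interval ran from 0.54 to 2.06, with no allowance for the choice of the genes on this contrast. Leaving out both Flox mice 4 and 6 gave 1.14 ± 0.38, and leaving out EpithelialKO mouse 21 alone gave 1.10.

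The heavy chain that carries xCT to the membrane, Slc3a2, also serves other amino acid transporters and was far more abundant. It averaged 168 ± 22.2 CPM in EpithelialKO and 183 ± 28.6 CPM in Flox (SD, n = 5 each), with -0.12 ± 0.12 on the log2 scale (SE, edgeR adjusted p = 0.725). Per length of exon, Slc7a11 reached 0.00710 ± 0.00244 of the Slc3a2 level in EpithelialKO and 0.00265 ± 0.00103 in Flox (SD, n = 5 each). Slc7a11 was thus the scarce subunit in both groups.

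Cth encodes cystathionine gamma-lyase, which releases cysteine in the last step of transsulfuration (Entrez 107869, chromosome 3, 157894248 to 157925081, minus strand). It stood at 12.5, 14.2, 17.8, 19.3 and 18.3 CPM in EpithelialKO mice 17, 18, 20, 21 and 22, against 8.98, 9.70, 8.09, 12.8 and 7.37 CPM in Flox mice 2, 3, 4, 5 and 6. All 5 EpithelialKO mice lay above the Flox mean, and EpithelialKO mouse 17, at 12.5 CPM, fell below Flox mouse 5, at 12.8 CPM. Its log2 fold change was 0.81 ± 0.18 (SE), or 1.75-fold, and 0.65 ± 0.21 without Flox mice 4 and 6. In edgeR, Cth did not pass the threshold on all 10 mice, without Flox mice 4 and 6 or with the pan-epithelial covariate. With 1 mouse left out it passed only without Flox mouse 5, the highest of Flox, where 48 of 15496 genes passed. It also passed in limma-voom, where 29 of 15301 genes did.

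Cbs encodes cystathionine beta-synthase, which makes the substrate of Cth from homocysteine and serine (Entrez 12411, chromosome 17, 31612623 to 31637233, minus strand). It stood at 6.73, 6.10, 7.05, 4.70 and 5.30 CPM in EpithelialKO mice 17, 18, 20, 21 and 22, against 6.84, 2.21, 5.49, 2.46 and 5.33 CPM in Flox mice 2, 3, 4, 5 and 6. Flox mice 3 and 5 were low and the other 3 Flox mice lay within the EpithelialKO range. The coefficient of variation was 16.4% in EpithelialKO and 45.5% in Flox, the widest spread of the 9 genes in Flox. Cbs had a log2 fold change of 0.41 ± 0.30 (SE), and it was 0.24 without Flox mouse 3 and 0.63 ± 0.37 without Flox mice 4 and 6.

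Cth and Cbs ordered the mice differently: the EpithelialKO mouse with the highest Cth, 21, had the lowest Cbs of its group, and Flox mouse 5 had the highest Cth and the second lowest Cbs of its group. Both enzymes are abundant in liver. The summed level of 6 hepatocyte genes was 19.0, 11.6, 39.3, 82.9 and 42.1 CPM in EpithelialKO mice 17, 18, 20, 21 and 22, against 14.9, 25.2, 20.2, 26.2 and 14.6 CPM in Flox mice 2, 3, 4, 5 and 6. In EpithelialKO, mice 20, 21 and 22 were higher than mice 17 and 18 in this sum and in Cth. Most of the sum was Alb, the gene of serum albumin, at 9.84 to 70.1 CPM in EpithelialKO and 12.2 to 21.5 CPM in Flox. The urea cycle gene Cps1 reached at most 2.38 CPM in EpithelialKO and 0.732 CPM in Flox, and none of the 6 genes was at 0 in all mice. The part of these RNAs in the Cth values was not tested.

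Ggt5 encodes a gamma-glutamyltransferase of the cell surface that cleaves extracellular glutathione and leukotriene C4 (Entrez 23887, chromosome 10, 75589327 to 75617200, plus strand). It stood at 18.8, 14.1, 13.9, 14.8 and 12.9 CPM in EpithelialKO mice 17, 18, 20, 21 and 22, against 10.8, 14.8, 16.1, 13.7 and 13.2 CPM in Flox mice 2, 3, 4, 5 and 6. EpithelialKO mouse 17 was the highest and Flox mouse 2 the lowest, and the other mice were mixed. For Ggt5 the log2 fold change was 0.12 ± 0.16 (SE), the smallest of the 9, with 0.02 without EpithelialKO mouse 17 and 0.19 ± 0.19 without Flox mice 4 and 6. Ggt1, the paralog best known for glutathione breakdown, was at 1.41 CPM in EpithelialKO and 1.45 CPM in Flox on average (chosen after its values were seen).

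Chac2 encodes a gamma-glutamylcyclotransferase that degrades glutathione inside the cell (Entrez 68044, chromosome 11, 30976707 to 30986365, minus strand). It stood at 6.73, 5.66, 7.99, 6.54 and 5.86 CPM in EpithelialKO mice 17, 18, 20, 21 and 22, against 4.42, 5.01, 4.35, 9.19 and 4.78 CPM in Flox mice 2, 3, 4, 5 and 6. All EpithelialKO mice lay above 4 of the Flox mice, and Flox mouse 5 lay above them all. Chac2 had a log2 fold change of 0.25 ± 0.24 (SE), and it was 0.50 without Flox mouse 5 and 0.09 ± 0.29 without Flox mice 4 and 6. The paralog Chac1, an ATF4-dependent gene, averaged 4.45 ± 2.00 CPM in EpithelialKO and 5.93 ± 2.21 CPM in Flox (SD, n = 5 each), with -0.41 ± 0.34 on the log2 scale (SE, edgeR adjusted p = 0.668; chosen after its values were seen).

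The levels of the genes relative to each other can be compared per length of exon. Gclc was the most abundant in both groups, at 78.0 ± 6.93 CPM per kb in EpithelialKO and 50.8 ± 5.65 in Flox, and was followed by Gsr at 34.6 ± 5.51 in EpithelialKO and 31.6 ± 4.56 in Flox (SD, n = 5 each). The order in Flox then ran Gss, Gclm, Chac2, Cth, Ggt5, Cbs and Slc7a11. Neighbours from Gss to Ggt5 in that order overlapped in their ranges over the Flox mice, whereas Gclc and Gsr, Gsr and Gss, Ggt5 and Cbs, and Cbs and Slc7a11 did not overlap. In EpithelialKO the means had the order Gclc, Gsr, Gss, Gclm, Cth, Chac2, Ggt5, Cbs and Slc7a11. There, too, the neighbours from Gss to Chac2 overlapped and the other neighbours did not. The exon lengths are unions over GENCODE M21 transcripts, 1315 bases for Chac2 and 13922 bases for Slc7a11, and a lung transcript shorter than the union would have a higher level than given here.

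**Figure D2:**
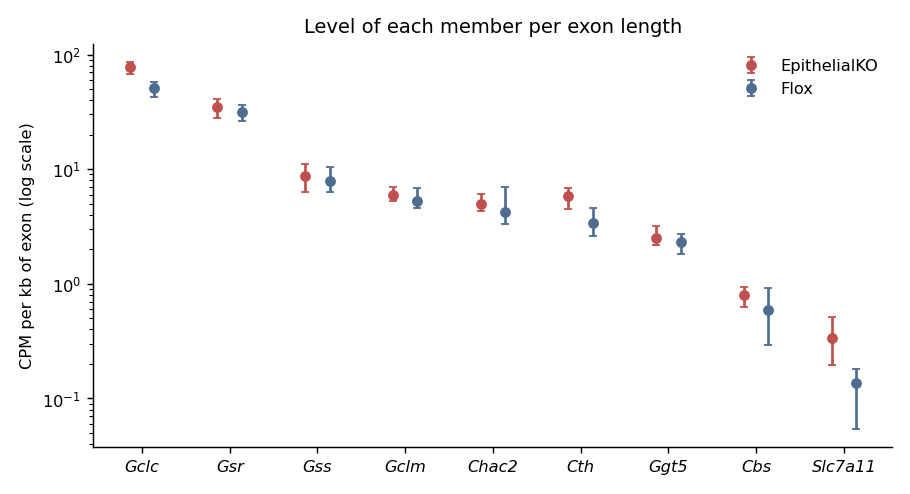
Level of each gene in CPM per kb of exon (log axis), EpithelialKO left and Flox right; points are means of 5 mice and bars run from the lowest to the highest mouse. Gclc and Gsr lie above the other 7 genes in both groups, and Cbs and Slc7a11 lie below them.

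The 9 genes together summed to 526 ± 35.6 CPM in EpithelialKO and 393 ± 38.6 CPM in Flox (SD, n = 5 each). Gclc made up 55.8% ± 3.53 of this sum in EpithelialKO and 48.7% ± 2.34 in Flox. Most of the difference in the sum was therefore a difference in Gclc.

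Pan-epithelial genes were higher in the EpithelialKO libraries, though not every epithelial class was. All 13 pan-epithelial genes had a positive fold change, with a median of 0.36, and their mean log2 CPM was 6.54 ± 0.11 in EpithelialKO and 6.16 ± 0.12 in Flox (SD, n = 5 each), with ranges of 6.39 to 6.66 and 5.97 to 6.30. The 8 fibroblast and 8 endothelial genes had medians of -0.44 and -0.43, with 7 of 8 and 8 of 8 negative. Of the 6 club cell genes, all were positive, with sums from 33473 to 52863 CPM in EpithelialKO and from 21444 to 46494 CPM in Flox. The lowest club cell sums were those of Flox mice 4 and 6, 25412 and 21444 CPM. Flox mice 2, 3 and 5, at 38505, 37631 and 46494 CPM, lay within the EpithelialKO range. All 6 ciliated cell genes were positive too, with a median of 0.38. The 6 genes of AT1 cells, the flat alveolar cells of gas exchange, had a median of 0.01 with 4 positive, and sums from 3455 to 5540 CPM in EpithelialKO and from 3681 to 5005 CPM in Flox. Macrophage genes, 7 in number, were mixed, 5 positive and 2 negative, with sums from 829 to 1860 CPM in EpithelialKO and from 617 to 1255 CPM in Flox. None of these marker genes passed the threshold. The part of these cell types in the values of the 9 genes was not tested beyond the comparison that follows.

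Set against the pan-epithelial mean of the same mouse, the log2 level of Slc7a11 was higher in EpithelialKO by 0.90, that of Cth by 0.43, that of Gclc by 0.24 and that of Cbs by 0.15. On this scale Slc7a11 lay above all Flox mice in 4 of 5 EpithelialKO mice and Gclc and Cth in 3 of 5. The relative log2 level of Gclc ran from 1.59 to 1.71 in EpithelialKO and from 1.13 to 1.63 in Flox. The other 5 genes were lower on this scale, with differences of -0.22 for Gclm, -0.23 for Gss, -0.25 for Gsr, -0.26 for Ggt5 and -0.09 for Chac2. The pan-epithelial mean was itself higher in EpithelialKO by 0.38. Any gene with a log2 fold change clearly below that value therefore comes out lower on this scale, as would the median tested gene, at 8e-04. Nothing is read from the sign of these differences. With the pan-epithelial mean as a covariate in edgeR, the log2 fold change was 0.63 ± 0.76 for Slc7a11, 0.55 ± 0.37 for Cth, 0.36 ± 0.20 for Gclc and 1.17 ± 0.65 for Cbs (SE). This covariate separates the groups by itself, so its part and that of the group cannot be told apart in these mice.

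**Figure D3:**
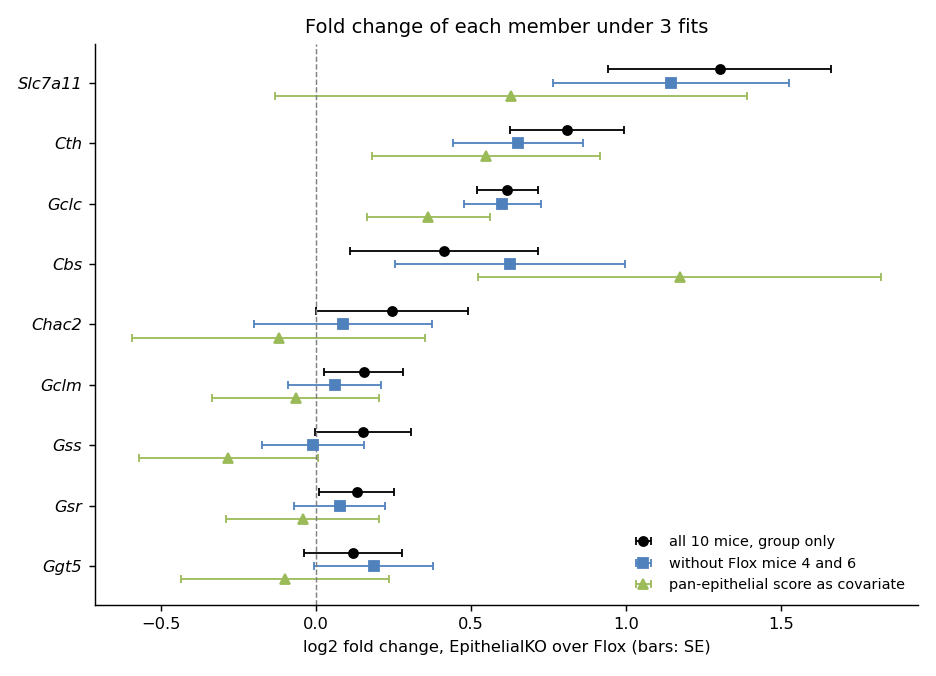
Log2 fold change of EpithelialKO over Flox for each of the 9 genes with its SE, in edgeR on all 10 mice (black circles), without Flox mice 4 and 6 (blue squares) and with the mean of 13 pan-epithelial genes as a covariate (green triangles). Slc7a11, Cth, Gclc and Cbs are positive in all 3 fits, and the other 5 genes lie near 0 and turn negative with the covariate.

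For Gclc, Gclm and Cth, the profile over the 10 mice was compared with that of 11545 other tested genes, by the root-mean-square difference of log2 CPM after each profile was centred on its own mean. The genes most like Gclc were Fut4 (0.10), a fucosyltransferase, Galnt3 (0.14), which starts mucin-type O-glycosylation, Gal3st1 (0.14) and Mettl18 (0.14), where the median gene differed by 0.40. The gene most like Cth was Asns (0.15), asparagine synthetase and an ATF4 target, followed by Bex4 (0.20), Zfp57 (0.22) and the mitochondrial ribosomal RNA mt-Rnr1 (0.23), with a median of 0.52. Those most like Gclm were Mtus1 (0.09), Pcbp2 (0.10), Gdpd1 (0.10) and Zc2hc1c (0.10), with a median of 0.29. Among the 9 genes the closest pair was Gsr and Ggt5 (0.17), and Gclc and Gclm differed by 0.35. These likenesses include the difference between the groups and are descriptions of 10 mice.

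The rest of the pathway was followed through 115 other genes in 10 lists by role, of which 111 were tested. None of the 111 passed the threshold in edgeR over all genes, where 0.0392% of all tested genes did. An unadjusted p under 0.05 was found for 30 higher and 2 lower of the 111, beside 5.87% of all tested genes higher and 6.52% lower. In either direction, these were 32 on all 10 mice, 16 without Flox mice 4 and 6 and 11 with the pan-epithelial covariate. Over all tested genes they were 1896 of 15301, 1207 of 15722 and 784 of 15301. The lists were chosen with earlier results of these data known, so nothing is read from these counts. DESeq2 passed 5 higher and 1 lower, beside 0.871% higher and 1.34% lower of the 12627 genes with an adjusted p. The median log2 fold change of the 111 genes was 0.12 with 80 positive, beside 8e-04 and 50.1% over all tested genes.

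Genes that supply cysteine and glutamate had a median log2 fold change of 0.09 over 12 tested, with 9 positive and 0 called. Their lowest adjusted p was 0.566, for Slc1a1, a transporter of glutamate and cysteine at 23.6 ± 5.37 CPM in EpithelialKO and 19.5 ± 4.05 CPM in Flox (SD, n = 5 each). Glul, glutamine synthetase, had 0.20 ± 0.16, and Slc1a4, a neutral amino acid transporter, had 0.18 ± 0.16 (SE). The highest estimate of this list, 0.31 ± 0.47 (SE), belonged to Gls2, at 1.05 CPM in EpithelialKO and 0.845 CPM in Flox on average. All estimates of the list were thus below those of Slc7a11 and Cth. The error of Gls2 was too wide to exclude a fold change like theirs for this gene.

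Genes of cysteine use and sulfide metabolism had a median of 0.11 over 8 tested, with 6 positive and 0 called. The sulfurtransferase Mpst stood at 56.5 ± 3.67 CPM in EpithelialKO and 45.4 ± 3.87 CPM in Flox (SD, n = 5 each) without overlap, with 0.32 ± 0.10 on the log2 scale (SE, edgeR adjusted p = 0.184). The related Tst had 0.44 ± 0.17 (edgeR adjusted p = 0.303). Genes of glutathione breakdown had a median of 0.04 over 11 tested, with 8 positive and 0 called. Dpep2, a dipeptidase, was at 18.6 ± 5.98 CPM in EpithelialKO and 12.1 ± 1.602 CPM in Flox, with 0.61 ± 0.20 (SE, edgeR adjusted p = 0.212), while Lap3, an aminopeptidase, had 0.20 ± 0.11. The highest value of this list, 0.92 ± 0.61, belonged to Ggt6, at 1.67 CPM in EpithelialKO and 0.872 CPM in Flox on average. Oplah, which recycles 5-oxoproline to glutamate, had 0.21 ± 0.11 (edgeR adjusted p = 0.435).

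Peroxidases and glutaredoxins, many of which use glutathione, were listed together with Hagh, Glo1 and Esd. This list had a median of 0.19 over 12 tested, with 10 positive and 0 called. Gpx2, the peroxidase of epithelia, stood at 42.1 ± 10.4 CPM in EpithelialKO and 25.0 ± 7.31 CPM in Flox (SD, n = 5 each), with 0.75 ± 0.21 on the log2 scale (SE, edgeR adjusted p = 0.158). Within Flox, Gpx2 was lowest in mice 4 and 6, at 19.8 and 15.8 CPM, against 34.5, 28.0 and 27.0 CPM in mice 2, 3 and 5. Gpx3, the secreted peroxidase, stood at 811 ± 116 CPM in EpithelialKO and 1051 ± 119 CPM in Flox, with -0.37 ± 0.11 (edgeR adjusted p = 0.175). Gpx1 and the lipid peroxidase Gpx4 had 0.27 ± 0.09 and 0.30 ± 0.12. Gpx2 and Gpx3 passed in DESeq2, in opposite directions.

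Genes that supply NADPH, which glutathione reductase needs, had a median of 0.20 over 6 tested, all positive and 0 called. Idh1, the cytosolic isocitrate dehydrogenase, had 0.26 ± 0.09 (SE, edgeR adjusted p = 0.248), Pgd of the pentose phosphate pathway had 0.22 ± 0.08 without overlap between the groups, and Tkt, transketolase, had 0.19 ± 0.09. Transporters of glutathione and its conjugates had a median of 0.10 over 8 tested, with 5 positive and 0 called, and the mitochondrial carriers Slc25a10 and Slc25a39 had 0.26 ± 0.11 and 0.15 ± 0.10.

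None of the regulators passed the threshold. NRF2 and its partners had a median log2 fold change of -0.07 over 9 tested, with 4 positive and 0 called. Nfe2l2, which encodes NRF2, was at 202 ± 22.0 CPM in EpithelialKO and 177 ± 26.7 CPM in Flox (SD, n = 5 each), with 0.19 ± 0.11 (SE, edgeR adjusted p = 0.508), and the small MAF partner Mafk had -0.25 ± 0.11 (edgeR adjusted p = 0.33). ATF4, the kinases and phosphatase subunits around it, and also Ddit3 and Atf3 had a median of -0.06 over 9 tested. Of these, 3 were positive and 0 called. Atf4 itself was at 142 ± 13.5 CPM in EpithelialKO and 131 ± 38.3 CPM in Flox, with 0.11 ± 0.15 (edgeR adjusted p = 0.812; chosen after its values were seen). Ddit3, the gene of CHOP, had 0.40 ± 0.13 (edgeR adjusted p = 0.205), and Eif2ak3, the gene of PERK, had -0.22 ± 0.13 (edgeR adjusted p = 0.501). NRF2 and ATF4 are known to be regulated largely after transcription.

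NRF2 targets outside glutathione synthesis had a median of 0.29 over 18 tested, with 15 positive and 0 called. Hmox1, heme oxygenase, stood at 51.0 ± 8.03 CPM in EpithelialKO and 38.2 ± 1.45 CPM in Flox (SD, n = 5 each) without overlap, with 0.42 ± 0.11 on the log2 scale (SE, edgeR adjusted p = 0.153). The ferritin light chain Ftl1 had 0.34 ± 0.09 (edgeR adjusted p = 0.154), the glutathione transferase Gsta4 had 0.50 ± 0.15 (edgeR adjusted p = 0.183) and the peroxiredoxin Prdx1 had 0.34 ± 0.11 (edgeR adjusted p = 0.222). Within Flox, Gsta4 was lowest in mice 4 and 6, at 88.8 and 69.6 CPM, against 118, 106 and 104 CPM in mice 2, 3 and 5. Ftl1 and Prdx1 have near-identical pseudogene copies, which makes their counts uncertain. Hmox1 and Ftl1 passed in DESeq2. Nqo1, the quinone reductase often used as a marker of NRF2, stood at 12.9 ± 3.56 CPM in EpithelialKO and 7.13 ± 3.41 CPM in Flox, with 0.86 ± 0.32 (edgeR adjusted p = 0.279; chosen after its values were seen). Flox mice 4 and 6 had the lowest Nqo1, 2.72 and 4.42 CPM. Flox mice 2, 3 and 5 had 8.47, 9.27 and 10.8 CPM, and the EpithelialKO mice ran from 8.49 to 17.4 CPM. Within this list Txnrd1 and Srxn1 had 0.13 ± 0.11 and 0.19 ± 0.12, near the values of Gclm and Gsr (chosen after their values were seen).

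ATF4 targets outside cystine supply had a median of 0.19 over 18 tested, with 14 positive and 0 called. Psat1, an enzyme of serine synthesis, stood at 24.7 ± 1.28 CPM in EpithelialKO and 15.5 ± 1.83 CPM in Flox (SD, n = 5 each) without overlap, with 0.67 ± 0.13 on the log2 scale (SE, edgeR adjusted p = 0.0577). Asns stood at 35.5 ± 3.22 CPM in EpithelialKO and 22.0 ± 5.22 CPM in Flox without overlap, with 0.69 ± 0.15 (edgeR adjusted p = 0.0859). In DESeq2 and in a limma-voom fit, Psat1 and Asns passed the threshold. The lipoprotein receptor Vldlr had 0.36 ± 0.10 (edgeR adjusted p = 0.167) and the seryl-tRNA synthetase Sars 0.24 ± 0.09 (edgeR adjusted p = 0.249). The lowest value of the list, -0.43 ± 0.58, belonged to Pycr1 (edgeR adjusted p = 0.815; chosen after its values were seen).

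**Figure D4:**
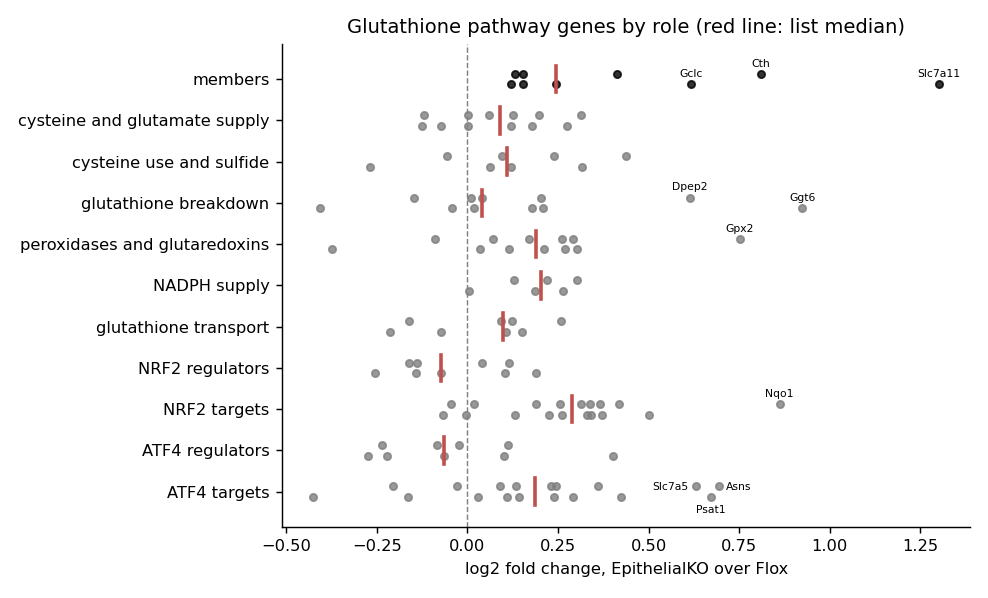
Log2 fold change of EpithelialKO over Flox for the 9 genes (black points, top row) and for the tested genes of the 10 other lists (grey points), with a red line at the median of each list; genes beyond 0.59 in size are named. The medians lie between -0.07 for NRF2 regulators and 0.29 for NRF2 targets, and Slc7a11 has the highest value of all genes shown.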

How the data were processed

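Whole-lung RNA of 10 mice, enriched with oligo(dT) beads per the labels' protocols, was sequenced. The submitters' processing notes name cutadapt, HISAT2 and build GRCm38. The counting tool, its annotation and strand setting, and all versions were not given in the sources used here. Per mouse, the authors deposited 1 column of raw counts, keyed by Entrez gene, which the values show to be whole numbers without normalization. Of 27179 rows, 25275 matched a RefSeq symbol (GRCm38.p6).

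After filterByExpr (15301 genes) and TMM scaling, edgeR 4.0.16 in R 4.3.3 fitted a robust quasi-likelihood model to all 10 mice with group as the only term, and F test p-values were adjusted by Benjamini-Hochberg at 0.05. CPM are per TMM-scaled library, SE come from the F statistic, and log2 CPM used a prior count of 2. Totals per mouse ran from 14983829 to 21224412. No pair of libraries agreed within sampling noise (chi-square over degrees of freedom of at least 15.1). The fits were also run on simulated counts with known fold changes, drawn with no difference in sex or cell types. Those runs do not bear on how the calls change between the alternatives.

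The genes and lists were chosen with earlier results of these data known. The text names the 9 genes, from each other list up to 4 tested genes with the lowest p, and the 4 genes most like Gclc, Gclm and Cth among those of at least 5 CPM, predicted models left out. Alternatives were 2 other scalings, DESeq2 1.42.0, limma-voom 3.58.1, 2 other filters, each mouse or Flox mice 4 and 6 left out, the pan-epithelial mean as a covariate and 1 surrogate variable (sva 3.50.0).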

Additional observations from a re-analysis of the deposited data

Results flagged for a closer look

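Flox mouse 2 had 43.3 CPM of Gclm, whereas the other 4 Flox mice had 28.8 to 32.4 CPM, a gap of 0.756 of the group's range against a critical value of 0.71 for 5 samples. Flox mouse 5 had 9.19 CPM of Chac2, whereas the other 4 Flox mice had 4.35 to 5.01 CPM, a gap of 0.862 of the range. Chance alone sets apart about 1 in 20 groups by this criterion. Flox mouse 5 also had the lowest total count, 14983829, and the highest Cth of its group.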

How the results depend on the processing

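Gclc, Slc7a11, Cth and Cbs kept a positive fold change under all 19 alternatives, from 0.36 to 0.66, 0.63 to 1.49, 0.55 to 0.94 and 0.24 to 1.17. Gclm, Gsr, Ggt5 and Chac2 did so under 18 and Gss under 17. With the pan-epithelial covariate, 4 of the 9 genes were positive and the median of the 9 was -0.0425. Leaving out Flox mice 4 and 6 gave a median of 0.19 with 8 of 9 positive, and with 1 mouse left out the median ran from 0.17 to 0.29, with all 9 positive each time. The 6 genes called in edgeR became 279 in DESeq2, 29 in limma-voom, 34 with no count filter, 49 with 1 surrogate variable, 0 without Flox mice 4 and 6, 0 with the pan-epithelial covariate, and 0 to 48 with 1 mouse left out, the 48 without Flox mouse 5. Genes with an unadjusted p under 0.05 numbered 1896 on all 10 mice, 1207 without Flox mice 4 and 6 and 784 with the covariate. Of the other listed genes, 0 were called in edgeR, against 6 in DESeq2, 2 in limma-voom, 2 with no count filter, 3 with 1 surrogate variable, and 0 to 2 with 1 mouse left out. The cause of these changes was not tested. No paired analysis was run because the labels give no pairing and no batch. A batch that followed the groups could not be told apart from them. Slc7a11, at 14 to 133 counts per mouse, and Cbs, at 37 to 147, had the widest errors of the 9 genes.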
